A study of Arabidopsis thaliana with 4 samples.

Results

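The genes described here encode small proteins of the Bet v 1-like superfamily, the polyketide cyclase/START-like and major latex-like proteins of Arabidopsis thaliana. The group was set as 5 loci of these kinds: AT1G23120, AT1G23130, AT4G32870, AT1G24020 (MLP423) and AT1G70890 (MLP43). The rule that set the group did not assign each locus to a kind. A locus was kept where a probe set of the array carried it as its single gene name. That held for 3 of the 5, AT1G23120, AT1G23130 and AT4G32870, each with 1 probe set out of 13513 single-gene probe sets on the array. MLP423 and MLP43 are not analysed here. The genes were chosen by their measured KIN10 responses, in particular the large mean rises of AT1G23120 and AT4G32870, so their differences between KIN10 and control are given below as a description with no test.

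The study measured total RNA from leaf mesophyll protoplasts, which are photosynthetic leaf cells freed of their walls, on Affymetrix arrays. Control cells received control plasmid DNA and treated cells a plasmid expressing KIN10 (AT3G01090), in both cases 1 mg of DNA followed by 6 h in the light, so all arrays share wall digestion and transfection. Each of 2 independent experiments gave 1 control and 1 KIN10 array from protoplasts pooled over 36 soil-grown plants, with its own operator, plants, growth chamber, DNA and array facility. KIN10 came from transient overexpression in isolated cells, and the labels name no promoter, accession or plant age.

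Bet v 1, the main allergen of birch pollen, gives the superfamily its name. Its members fold around a large hydrophobic cavity that can hold lipids, hormones and other small ligands, and in plants the superfamily includes the receptors of abscisic acid and the latex-like proteins first described in poppy latex. KIN10 is a catalytic subunit of SnRK1, a kinase that plant cells use to adjust transcription when energy is short.

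Levels are deposited signals on a linear scale, and changes are log2 differences, KIN10 minus control, after each array was centred on its median. The median signal per array lay between 275.5 and 521.75. Of 10 mesophyll markers 4 had a single-gene probe set, and these lay between percentiles 77.5 and 99.7 of their arrays. Of 4 guard cell markers 2 were measured, between percentiles 24.4 and 53.4, and no marker of epidermis, phloem or trichomes had a single-gene probe set.

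AT1G23120 had low signal in control cells and a clear signal with KIN10 in both experiments. In experiment 1 its signal was 60.9 with control DNA and 1400.4 with KIN10, and in experiment 2 it was 234.8 with control DNA and 5071.9 with KIN10. Both KIN10 arrays lay above both control arrays, and experiment 2 had the higher signal of the experiments with either plasmid. The rise was 21.6-fold in experiment 1 and 26.9-fold in experiment 2. This gives a mean log2 change of 4.59 ± 0.22 (SD, n = 2 experiments), or 24.1-fold, and the standard error from limma was 0.30. The control signals lay at percentiles 18.3 and 45.6 of their arrays, and the KIN10 signals at percentiles 70.9 and 89.8. A control signal this low leaves the size of the fold less certain. With 50 added to every signal the mean fold was 16.4.

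AT4G32870 already had a clear signal in control cells and was among the brightest probe sets with KIN10. With control DNA its signal was 1711.8 in experiment 1 and 1711.9 in experiment 2, against 25798.5 and 37757.5 in that order with KIN10. The control arrays were thus nearly the same as deposited, and both KIN10 arrays lay far above them, at percentiles 99.0 and 99.5. The rise was 14.2-fold in experiment 1 and 27.5-fold in experiment 2. The mean log2 change was 4.30 ± 0.68 (SD, n = 2 experiments), or 19.7-fold, with a limma standard error of 0.33. With control signals at percentiles 74.7 and 74.8, the fold of AT4G32870 changed little when 50 was added to every signal, to 19.0.

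AT1G23130, the protein-coding gene next to AT1G23120 on chromosome 1 in the RefSeq table, had no common direction. In experiment 1 its signal was 322.0 with control DNA and 108.2 with KIN10, but in experiment 2 it was 13.0 with control DNA and 62.8 with KIN10. The groups overlapped, and the control arrays held both the highest and the lowest value. The log2 change was -1.66 in experiment 1 and 2.59 in experiment 2, a mean of 0.46 ± 3.01 (SD, n = 2 experiments). All of its signals lay in the lower part of their arrays, between percentiles 10.8 and 41.7. In both experiments its change lay below that of the adjacent AT1G23120, by 6.10 and 2.16 on the log2 scale. That difference was not tested. AT1G23120 was chosen for its large rise, so a smaller change of its neighbour was likely beforehand, and nothing is read from it.

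**Figure D1:**
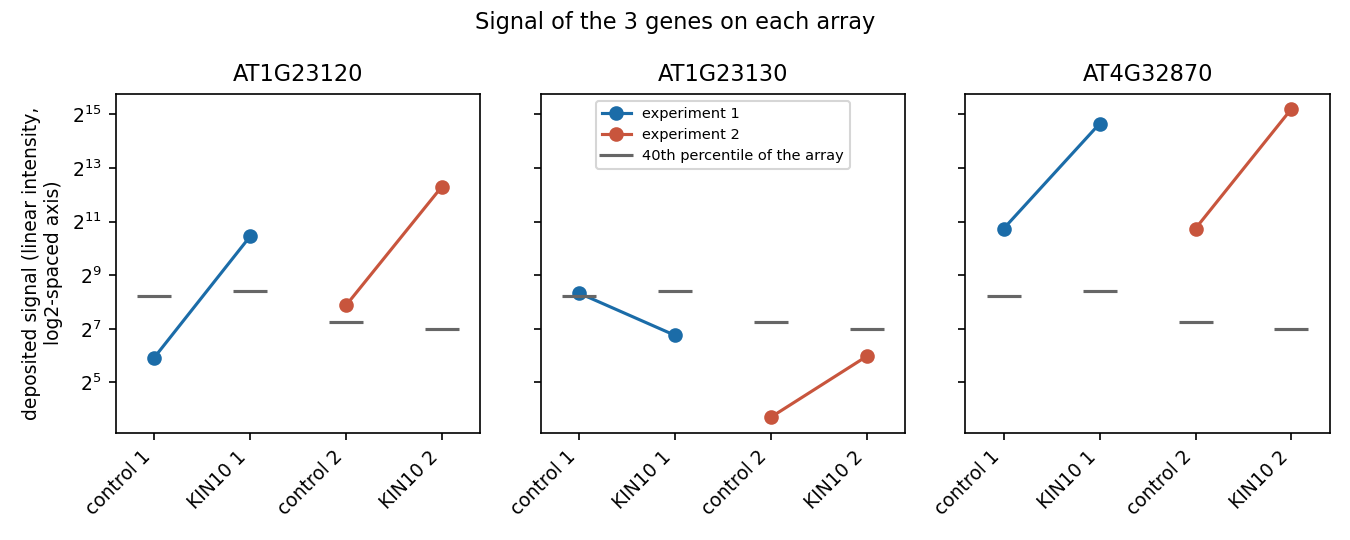
Deposited signal of AT1G23120, AT1G23130 and AT4G32870 on each of the 4 arrays, on a log2-spaced axis, with a line joining control and KIN10 within an experiment. Grey dashes give the 40th percentile of each array. The lines of AT1G23120 and AT4G32870 climb in both experiments, and that of AT1G23130 falls in experiment 1 (322.0 to 108.2) and climbs in experiment 2 (13.0 to 62.8).

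Within the whole array, 13648 probe sets passed a filter on low signal (mean log2 signal at or above the 40th percentile) and entered the limma fit. Of these 14.7% were called higher and 15.5% lower with KIN10, at an adjusted p under 0.05. AT1G23120 and AT4G32870 passed the filter and were called higher, which their choice had used and from which nothing is read here. AT1G23120 passed through its KIN10 arrays, since its control mean alone lay below the filter value, whereas the control mean of AT4G32870 lay above it. AT1G23130 was removed by the filter. By mean change AT1G23120 ranked 11 and AT4G32870 ranked 13 among 7471 tested single-gene probe sets, ordered from the largest rise. The order of the pair turned when 50 was added to every signal (16.4-fold for AT1G23120 and 19.0-fold for AT4G32870). A rise of at least 2-fold in both experiments was seen for 6.29% of tested probe sets, and KIN10 arrays above both control arrays for 17.7%. In bulk RNA such as this, a change in the number of cells of one kind and a change in RNA per cell cannot be told apart.

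**Figure D2:**
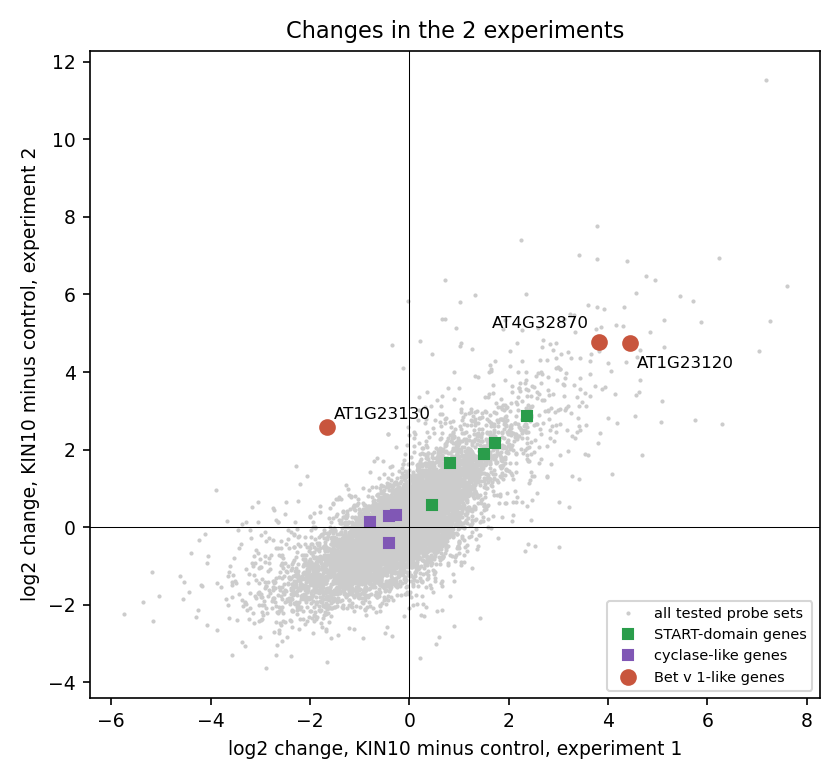
Log2 change with KIN10 in experiment 1 (x axis) against experiment 2 (y axis). Grey points are the 13648 tested probe sets, red circles the 3 genes (AT1G23130 had not passed the filter), green squares the tested START-domain genes and purple squares the tested cyclase-like genes. AT1G23120 and AT4G32870 lie at the upper right, above 3.8 in both experiments, and AT1G23130 lies in the upper left quadrant (-1.66 and 2.59).

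AT1G23120 and AT4G32870 differed in how their levels varied between the experiments. Signals of AT1G23120 were higher in experiment 2 both with control DNA and with KIN10, so its 4 arrays followed the experiment as well as the plasmid. Deposited signals of AT4G32870 had nearly the same control level in both experiments and differed with KIN10. After centring, experiment 2 was the higher for both genes with either plasmid. Centred log2 values of AT4G32870 were 1.80 and 2.32 with control DNA and 5.63 and 7.10 with KIN10 (experiments 1 and 2). Those of AT1G23120 were -3.01 and -0.55 with control DNA and 1.42 and 4.20 with KIN10. Over the 4 arrays, with each probe set centred on its own mean, the Euclidean distance between the profiles was 1.68 on the log2 scale. Seen from AT1G23120, AT4G32870 came at rank 20 of 7470 other single-gene probe sets in likeness. AT1G23120 came at rank 65 seen from AT4G32870. Both genes were chosen for large rises, which this distance takes in, so the choice itself favoured close ranks. Nothing is read from these ranks.

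The profiles most like AT1G23120 were those of AT1G76110 (distance 0.53), AT2G30600 (0.91) and WES1 (1.12), each measured over the same 4 arrays. AT1G76110 encodes an HMG-box DNA-binding protein and WES1 (GH3.5) an auxin-conjugating enzyme. AT1G76110 had control signals of 30.9 and 79.0 and KIN10 signals of 488.4 and 1615.6 (experiments 1 and 2), so its signal too was higher in experiment 2 with either plasmid. The profiles most like AT4G32870 were those of BGLU46 (distance 0.28), a beta-glucosidase gene, AT3G62550 (0.34) and AT1G72060 (0.40). BGLU46 had control signals of 256.5 and 240.0 and KIN10 signals of 3947.4 and 6908.3. Its control levels were thus close as deposited, and its KIN10 level was higher in experiment 2. After centring, its control log2 values were -0.93 and -0.52. With only 4 arrays these likenesses rest on few values and carry no test. The distance takes in the large rises for which AT1G23120 and AT4G32870 were chosen, so other genes with large rises were favoured as nearest profiles.

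The genes beside AT1G23120 and AT4G32870 on the chromosome were looked at after the values of both had been seen, taking the 3 protein-coding genes on each side in the RefSeq table. Next to AT1G23120, a single-gene probe set was found for AT1G23100, AT1G23130 and AT1G23140. AT1G23100 fell, with control signals of 653.4 and 358.7 against 202.7 and 116.9 with KIN10 (log2 change -1.54 ± 0.40, SE, limma adjusted p = 0.000936). AT1G23140 had a change of -0.17 ± 0.31 and was not called (limma adjusted p = 0.747). Next to AT4G32870, AT4G32860 was removed by the filter, with no signal above 12.5, and AT4G32900 had a change of 0.35 ± 0.28 (limma adjusted p = 0.370). None of the 3 neighbours that were tested was called higher, and AT1G23100 was called lower. Over all tested probe sets 14.7% were called higher and 15.5% lower, so little can be read from 3 genes.

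Related genes were listed in 4 families with 70 loci in all, of which 24 had a single-gene probe set and 9 passed the filter. The 14 receptors of abscisic acid of the PYR/PYL family, which share the Bet v 1-like fold, had no single-gene probe set and are not analysed here. The lists were written with earlier results of these data known.

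Among genes of START-domain proteins, which bind lipids in a cavity of the same kind, 4 of the 5 tested were higher with KIN10. The list held 27 genes, of which 7 had a single-gene probe set. The other 20, ATML1, PDF2 and REV among them, are not analysed here, so the counts do not describe START-domain genes as a whole. Of the 5 tested, 4 rose, none fell and 1 was not called, where 14.7% of all tested probe sets were called higher. Their median log2 change was 1.69, against 0.03 over all tested probe sets. AT3G13062 had control signals of 1701.4 and 1168.1 in experiments 1 and 2 and KIN10 signals of 9289.3 and 6852.3, so both KIN10 arrays were far above both controls. The rise was 6.13-fold, a log2 change of 2.61 ± 0.31 (SE from limma, with 2 arrays in each group, adjusted p = 2.17e-15).

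CP5, which encodes a START protein without the homeodomain found in many other plant START proteins, had signals of 7211.6 and 9720.5 with control DNA and of 25513.4 and 35333.7 with KIN10. It rose 3.88-fold (1.96 ± 0.34, limma adjusted p = 2.12e-07), and its groups did not overlap. AT4G14500, of the same kind, had 1894.8 and 2167.6 with control DNA and 5711.6 and 6424.2 with KIN10, a rise of 3.24-fold (1.69 ± 0.31, limma adjusted p = 6.73e-07). Signals of AT5G54170 were 13365.6 and 7324.0 with control DNA, against 25143.5 and 18585.5 with KIN10. It rose least of the 4, by 2.36-fold (1.24 ± 0.34, limma adjusted p = 0.00167), and again both KIN10 arrays lay above both controls.

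PHV, a homeodomain transcription factor gene of leaf polarity whose protein also carries a START domain, was not called. Its control signals were 2519.6 and 2977.0 and its KIN10 signals 3656.1 and 3548.7, with a log2 change of 0.51 ± 0.30 (limma adjusted p = 0.210). The other measured START genes, AT5G07260 and AT5G49800, had no signal above 40.4 and were removed by the filter. After centring, both KIN10 arrays of AT5G07260 lay below both controls (log2 changes of -0.84 and -1.18), and the groups overlapped for AT5G49800 (1.85 and -1.44). With no filter limma called neither (adjusted p of 0.596 and 0.941). The rises of these START genes were smaller than those of AT1G23120 and AT4G32870. In experiment 1 the log2 change was 4.43 for AT1G23120 and 3.82 for AT4G32870, against 2.36 for AT3G13062, the tested START gene with the largest change. In experiment 2 it was 4.75 for AT1G23120 and 4.78 for AT4G32870, against 2.87 for AT3G13062. That difference was not tested, since AT1G23120 and AT4G32870 were chosen for their size. The START calls depended on the experiment block: without it none of the 5 was called by limma (3 at an unadjusted p under 0.05), with adjusted p from 0.0811 for AT3G13062 to 0.919 for PHV. With 1 array left out and no block, AT3G13062 was called without KIN10 array 1 (limma adjusted p = 0.00862) and none of the 5 without any other array.

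The other polyketide cyclase-like genes and their COQ10-like and AHA1-like relatives had clear signals and no call. Of 7 listed, 4 were measured and tested, and limma called none of them (none at an unadjusted p under 0.05). Over all tested probe sets 14.7% were called higher and 15.5% lower, so no call among 4 genes sets them little apart. AT1G02470 had control signals of 2351.5 and 6703.1 and KIN10 signals of 1877.1 and 4008.0, with a log2 change of -0.42 ± 0.31 (limma adjusted p = 0.325). AT1G02475 had a change of 0.01 ± 0.33. AT4G17650, a homologue of the ubiquinone-binding protein COQ10 of yeast, had -0.06 ± 0.33, and AT3G12050, a homologue of the HSP90 activator AHA1 of yeast, had -0.33 ± 0.32 (limma adjusted p from 0.471 to 0.984 for these 3). The median of the 4 was -0.20, and after centring the arrays of the groups overlapped for each gene. When arrays were centred on the hybridization spike-ins, AT1G02470 (-0.75, limma adjusted p = 0.0194) and AT3G12050 (-0.67, limma adjusted p = 0.0465) were called lower. In that setting 37.6% of all 13648 tested probe sets were called, 3858 of them lower. With values as deposited 2 of the 4 had an unadjusted limma p under 0.05 (lowest limma adjusted p = 0.0535). The same number did after quantile normalization (lowest limma adjusted p = 0.0597), and none was called in either setting. Of all tested probe sets, 32.2% were called as deposited and 32.7% after quantile normalization.

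**Figure D3:**
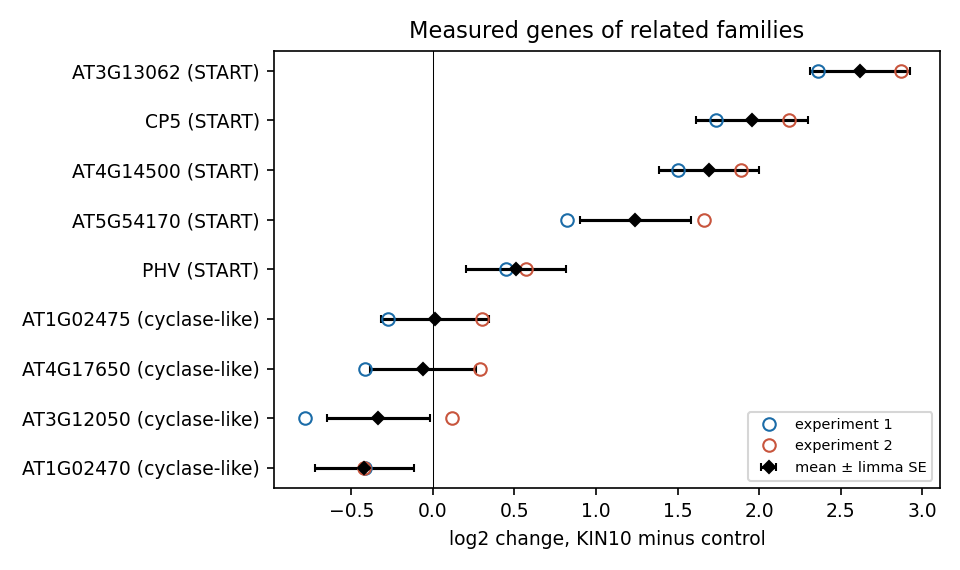
Log2 change with KIN10 of the 9 tested genes of related families. Black diamonds with bars are the mean and its limma standard error, open circles the change in experiment 1 (blue) and experiment 2 (red). AT3G13062, CP5, AT4G14500 and AT5G54170 lie above 0.8 in both experiments, and the means of the cyclase-like genes lie between -0.42 and 0.01.

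The other latex-like genes that were measured had little signal in these cells. Of 22 listed, 13 had a single-gene probe set, and all 13 were removed by the filter on low signal. For the 9 without one, MLP28 among them, nothing is known here. Their signals ran from 2.6 to 315.7, all 52 values lay below the 40th percentile of their array, and 24 lay below the 10th. With no filter, limma called none of the 13 (none at an unadjusted p under 0.05, adjusted p from 0.246 to 0.955). In that setting 14.9% of all 22746 probe sets were called. After centring, the KIN10 and control arrays did not overlap for 4 of the 13 (30.8%), 3 higher and 1 lower, near the 33.4% of all single-gene probe sets. AT1G30990 had the smallest adjusted p, at 19.7 and 18.9 with control DNA and 70.7 and 51.7 with KIN10 (log2 change 1.76). AT5G28010 followed, at 52.6 and 9.8 with control DNA and 133.8 and 31.1 with KIN10 (1.62, limma adjusted p = 0.286 with no filter). AT1G14940, the gene whose KIN10 arrays lay below both controls, had log2 changes of -0.36 in experiment 1 and -1.78 in experiment 2. The log2 change of AT3G26450 was -3.13 in experiment 1 and 2.41 in experiment 2.

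Markers of the cell types were compared as sums of deposited signals, which were not centred, and gene by gene after centring. The summed signal of the 4 mesophyll markers (LHCB4.1, RCA, PRK and SBPASE) was 46772 and 66129 with control DNA and 63484 and 94716 with KIN10, which is 1.36-fold and 1.43-fold higher in experiments 1 and 2. PRK was called higher (0.90 ± 0.31, limma adjusted p = 0.0174), and the other 3 were not called (adjusted p from 0.168 to 0.253), where 14.7% of all tested probe sets were called higher. After centring, the median log2 change of the 4 was 0.43 in experiment 1 and 0.78 in experiment 2. The groups overlapped for all 4. The 2 guard cell markers summed to 701.3 and 322.8 with control DNA and to 723.0 and 212.3 with KIN10. FMA had log2 changes of -0.38 and -0.52 and was not called (limma adjusted p = 0.393), whereas AT1G22690, removed by the filter, had changes of 0.98 and 0.44. The part of these marker differences in the changes above was not tested.

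**Figure D4:**
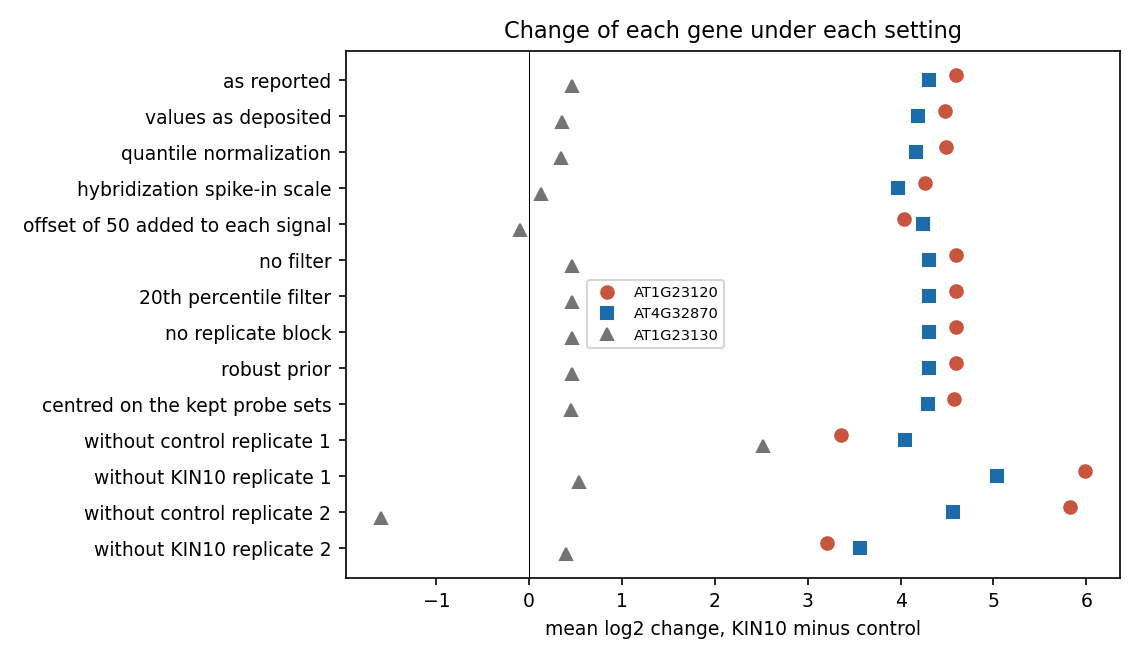
Mean log2 change with KIN10 of AT1G23120 (red circles), AT4G32870 (blue squares) and AT1G23130 (grey triangles) under each way of processing. AT1G23120 ran from 3.20 to 5.98 and AT4G32870 from 3.57 to 5.04, with both ends reached when 1 array was left out, and AT1G23130 lay on both sides of 0.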

How the data were processed

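The authors deposited linear intensity values, 1 per probe set and array, made with GCOS 1.0 per the submitters' processing notes. Its settings and a genome build were not given in the sources used. After trimming 2% at each end, the mean was 1500.13 to 1500.15 on every array. A single value at 0 was raised to its array's smallest positive one before log2. Centring used each array's median over 22746 probe sets, without 64 Affymetrix controls, and the filter removed 9098. The fit used limma 3.58.1 in R 4.3.3 (intensity trend, block for experiment, 1 residual degree of freedom). P-values were adjusted over 13648 probe sets (Benjamini-Hochberg).

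The block follows the design text, which pairs each control with a KIN10 transfection. Same-numbered arrays deviated together (Pearson r of 0.705 across probe sets). With 1311 prior degrees of freedom, standard errors follow a common trend (median 0.303) more than the single gene, and small p-values rest on that pooling. The prior degrees of freedom were 7.75 after quantile normalization, 15.5 with no filter and infinite on the spike-in scale. The limma adjusted p of AT3G13062 was then 2.95e-05, 2.50e-06 and 5.19e-15 in that order. With no filter it was 0.00188 for CP5 and 0.0359 for AT5G54170, so the size of these p-values depends on the setting. The number of arrays limits the precision.

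Names came from the platform annotation and Entrez numbers in RefSeq (TAIR10.1), using the brightest single-gene probe set of a gene. Named from the lists were the genes that passed the filter and some of the others. The 3 nearest profiles of each gene changed at least 2-fold were also named. The genes and lists were chosen with earlier results of these data known. Sequences were not used here.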

Additional observations from a re-analysis of the deposited data

How the results depend on the processing

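AT1G23120 and AT4G32870 were higher with KIN10 under all 13 alternatives tried, and 1 of these, centring on the kept probe sets, was chosen after seeing the data. On the spike-in scale, which moved the median change of tested probe sets from 0.03 to -0.30, AT1G23120 changed by 4.26, the START median was 1.36, 2 cyclase-like genes were called lower, and 1275 probe sets were higher and 3858 lower (24.8% of calls higher, against 48.7%). With 50 added to each signal AT1G23120 changed by 4.03 and AT1G23130 by -0.10, opposite in sign to its reported mean. With no filter the START median over 7 genes was 1.24.

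Without the experiment block, 122 probe sets were higher and 51 lower, against 2006 and 2111 with it, and 0 START genes were called (3 at an unadjusted p under 0.05 in limma). The block does not alter the changes themselves, and every START call made with it was lost without it.

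With 1 array left out, and no block, a lone array was assumed to vary like the others. The pairing was then lost, so each change also took in part of the difference between the experiments. AT1G23120 ran from 3.20 (without KIN10 array 2) to 5.98 (without KIN10 array 1), AT4G32870 from 3.57 to 5.04 with the same arrays left out, and AT1G23130 from -1.60 (without control array 2) to 2.52 (without control array 1). The START median ran from 1.15 to 2.24 with 0 to 1 called. The cyclase-like median ran from -1.05 (without KIN10 array 2) to 0.71 (without KIN10 array 1), and was -0.68 without control array 1 and 0.53 without control array 2. Probe sets called higher ran from 59 (without control array 1) to 697 (without KIN10 array 1), and lower from 8 (without control array 2) to 358 (without KIN10 array 2). The cause of the moves in these counts was not tested. Signal over background could not be set for single probe sets, since detection calls were not used here.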
